A study of Mus musculus with 12 samples.

Results

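The erythroid genes described here are 9 genes of red cells and their precursors, picked by name. They are the adult globins Hba-a1, Hba-a2, Hbb-bs and Hbb-bt, the haem enzyme Alas2, the anion exchanger Slc4a1, the transcription factors Gata1 and Klf1, and the erythropoietin receptor Epor. They make up 9 of the 47069 genes in the deposited expression table, with a single entry each. The study asked what happens to the liver of young mice when hepatocytes cannot divide. Polyadenylated RNA was sequenced at postnatal day 14 (P14) from WT mice, given in the labels as wild type, and from Cdk1 Liv-/- mice, which carry Cdk1 flox/flox alleles and Albumin-Cre. Each genotype was sampled as isolated hepatocytes and as whole liver, with 3 libraries in each of the 4 groups. Albumin-Cre acts in hepatocytes, so the deletion is aimed at these cells and not at erythroid, endothelial or Kupffer cells, which keep their Cdk1. Whether the WT mice carried floxed alleles or Cre, and whether hepatocytes and whole liver came from the same animals, is not given in the sources used here.

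Before birth the liver is the main site of red cell formation in the mouse, and this role passes to bone marrow and spleen around birth, with some erythroid cells still found in the liver of young animals. Erythroid progenitors depend on erythropoietin, which signals through its receptor, and the transcription factors Gata1 and Klf1 then switch on the genes for globins, haem synthesis and the red cell membrane. Globin mRNA persists in reticulocytes after the nucleus is lost, whereas within the erythroid lineage transcripts of regulators such as Klf1 mark nucleated precursors.

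Values are FPKM, fragments per length of transcript and depth of sequencing, so that genes of different length can be compared. Cdk1 (ENSMUSG00000019942), the deleted gene, was at 27.9, 20.4 and 28.2 FPKM in WT hepatocytes (replicates 1 to 3, in this order throughout) and at 9.68, 11.8 and 6.87 FPKM in Cdk1 Liv-/- hepatocytes. In whole liver it was at 25.3, 22.7 and 21.5 FPKM in WT and at 11.7, 12.1 and 14.2 FPKM in Cdk1 Liv-/-. In both compartments every Cdk1 Liv-/- library was lower than every WT library, as their labels state. The floxed region is an exon, so transcripts of the deleted allele can still count towards these values, as can Cdk1 of cells that Cre does not reach. On the log2(FPKM + 0.5) scale, which understates changes of weakly expressed genes, the fold change of Cdk1 was -1.40 in hepatocytes (standard error 0.22, limma adjusted p = 0.0148) and -0.85 in whole liver (standard error 0.10, limma adjusted p = 0.00353). Genes counted as called, here and below, when limma gave an adjusted p up to 0.1 together with a log2 fold change of 1 or more in size, so that Cdk1 was called in hepatocytes and fell short of the fold change in whole liver. An FPKM of 1 on a transcript of 1 kb stood for between 34.6 and 49.8 reads in the 12 libraries, as estimated from the steps between low values.

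A pair of libraries stood apart before any comparison. The Cdk1 Liv-/- whole liver replicate 3 had 158.3 FPKM of Xist, against at most 0.14 FPKM in the other 11 libraries, and 0 FPKM of 4 Y-linked genes (Uty, Kdm5d, Ddx3y, Eif2s3y), which had sums of 48.4 to 62.1 FPKM elsewhere. The methods of the study state that males were used, and this library goes against that statement. WT hepatocytes replicate 3 held more of the markers of other liver cells than the other WT hepatocyte libraries. The 11 markers of sinusoidal endothelial cells summed to 153, 104 and 296 FPKM in the WT hepatocyte libraries, the 14 of Kupffer cells and macrophages to 445, 272 and 755 FPKM, and the 14 of megakaryocytes and platelets to 19.3, 14.2 and 53.1 FPKM. The 12 hepatocyte markers, led by Alb, summed to 89703, 97582 and 93435 FPKM in the same libraries and set replicate 3 apart in neither direction. Calls of the 9 genes that change without either library are named below, and fits without them are not given for the markers of other cells.

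All 9 erythroid genes were above 0 in all 12 libraries, and all 9 passed the low filter, an average of 0.1 FPKM. Their levels spanned a wide range. In WT whole liver the order from high to low was Hbb-bs (643 ± 241 FPKM, mean ± SD, n = 3), Hba-a2 (438 ± 177), Hba-a1 (237 ± 95.8), Hbb-bt (161 ± 67.6), Alas2 (20.9 ± 0.676), Klf1 (2.42 ± 0.293), Epor (1.48 ± 0.254), Slc4a1 (0.830 ± 0.494) and Gata1 (0.113 ± 0.0379). Among neighbours in this order, the libraries of Hbb-bs and Hba-a2, of Hba-a2 and Hba-a1, of Hba-a1 and Hbb-bt, and of Epor and Slc4a1 overlapped. The order was the same in WT hepatocytes, where all neighbours other than Alas2 and Klf1 overlapped. In Cdk1 Liv-/- hepatocytes Alas2 stood above Hbb-bt, with overlapping libraries. In Cdk1 Liv-/- whole liver Klf1 came after Epor and Slc4a1, and its libraries overlapped those of Slc4a1.

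**Figure D1:**
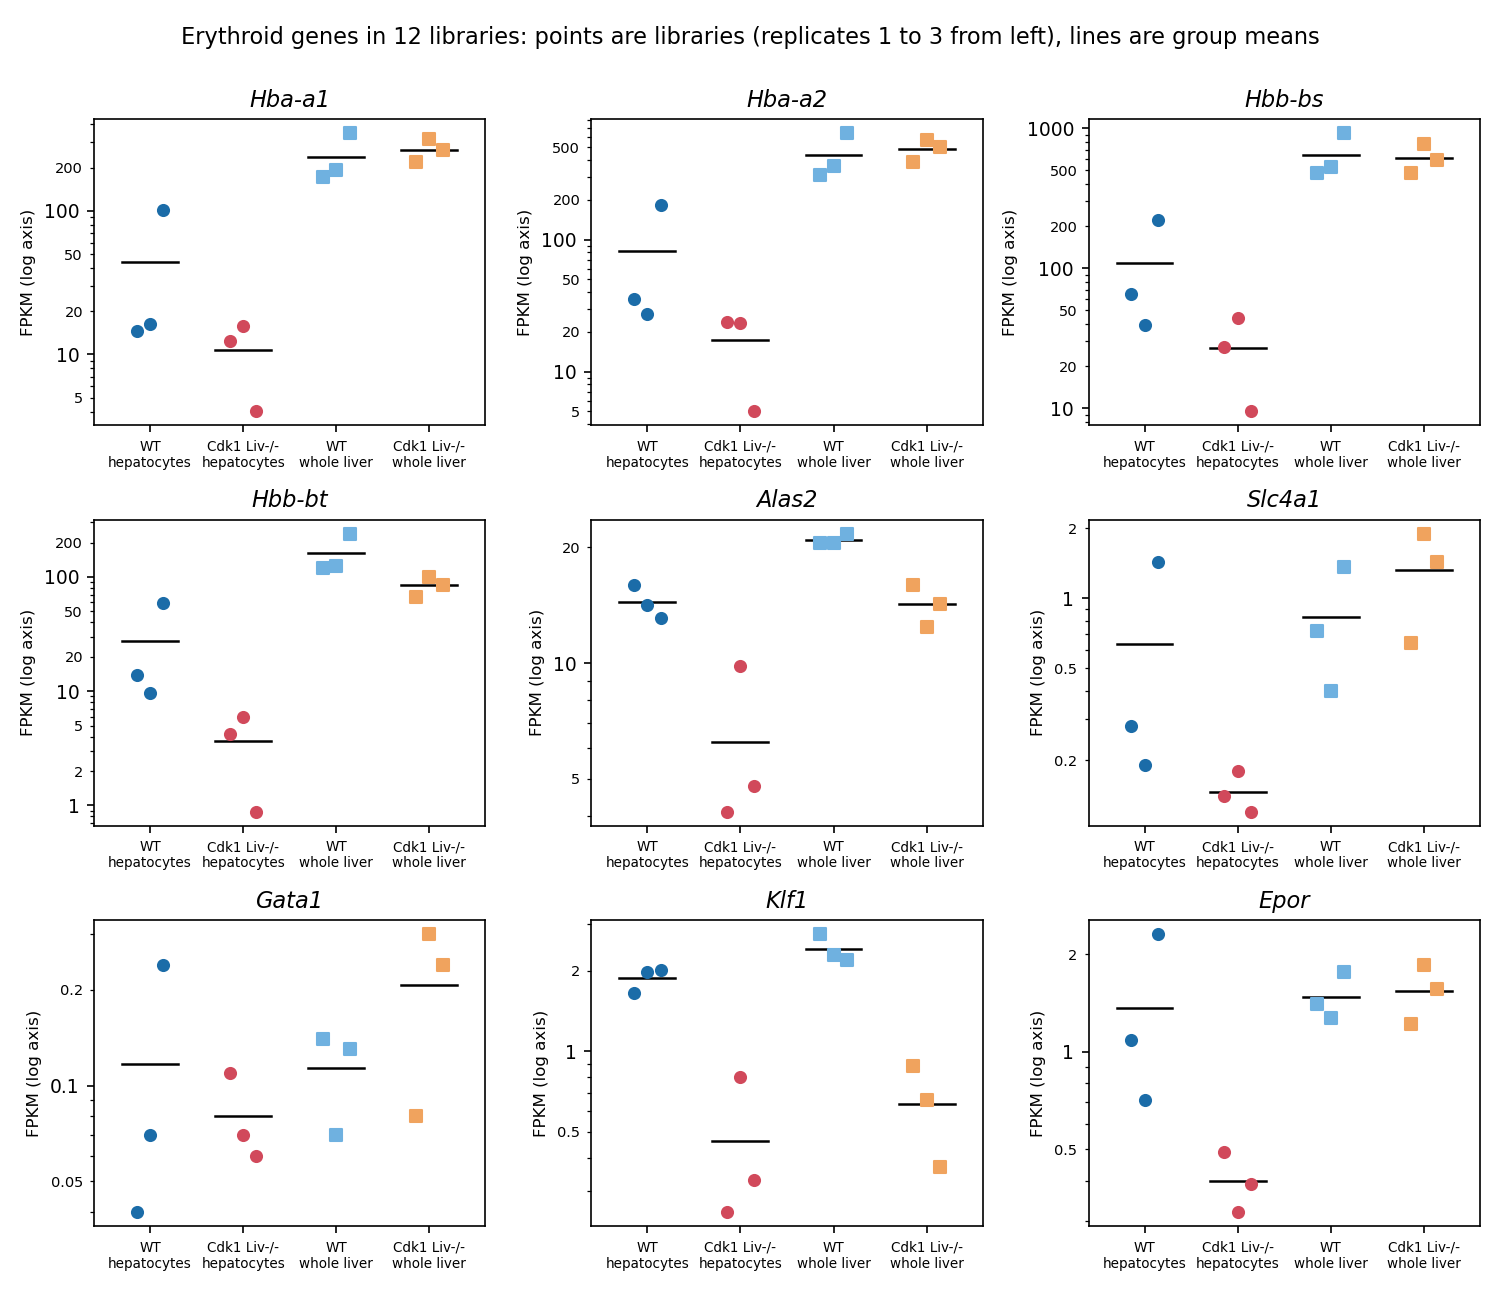
FPKM of the 9 erythroid genes in the 12 libraries, on log axes, with a point for each library and a line at each group mean (3 libraries a group). WT hepatocytes replicate 3 is the highest hepatocyte library for the 4 globins, Slc4a1, Gata1, Klf1 and Epor but not for Alas2. Klf1 is lower in Cdk1 Liv-/- than in WT in both compartments.

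Promoter sequences were available from RefSeq (GRCm38.p6) for 8 of the 9 genes, all but Slc4a1. The 250 bases before the annotated start were searched on both strands for GATAA and its reverse complement TTATC, the core of sites bound by Gata factors, and for CACCC and its reverse complement GGGTG, the core of sites bound by Klf1 and related factors. GATAA was found in 7 of the 8 windows, all but that of Gata1, and in 22.6% of all 32851 windows. CACCC was found in 8 of 8 and in 52.0% of all windows. The windows of Hba-a1 and Hba-a2 share a run of 247 bases, and the longest run shared by those of Hbb-bs and Hbb-bt is 14 bases. Shown here, 5′ to 3′ with both motifs in capitals, are the windows of the beta globin pair, whose ratio is described below, and of Alas2 and Klf1, which were lower in Cdk1 Liv-/- in both compartments. They lie at chr7:103827929-103828178 on the minus strand (Hbb-bs), chr7:103813924-103814173 on the minus strand (Hbb-bt), chrX:150547167-150547416 on the plus strand (Alas2) and chr8:84901732-84901981 on the plus strand (Klf1). The CACCC matches of Alas2 lie 30, 35 and 40 bases before the start, as GGGTG. A match is a description of the letters, and binding was not measured.
Hbb-bs: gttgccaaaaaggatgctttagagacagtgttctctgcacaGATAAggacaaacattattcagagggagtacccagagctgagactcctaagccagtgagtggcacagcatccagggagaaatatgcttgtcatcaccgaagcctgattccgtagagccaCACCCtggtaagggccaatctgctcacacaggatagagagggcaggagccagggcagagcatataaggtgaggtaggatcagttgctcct
Hbb-bt: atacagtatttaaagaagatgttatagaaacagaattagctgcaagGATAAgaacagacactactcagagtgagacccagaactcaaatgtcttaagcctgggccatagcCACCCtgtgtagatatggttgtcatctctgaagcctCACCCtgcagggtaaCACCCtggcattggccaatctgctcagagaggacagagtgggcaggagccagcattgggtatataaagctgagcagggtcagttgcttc
Alas2: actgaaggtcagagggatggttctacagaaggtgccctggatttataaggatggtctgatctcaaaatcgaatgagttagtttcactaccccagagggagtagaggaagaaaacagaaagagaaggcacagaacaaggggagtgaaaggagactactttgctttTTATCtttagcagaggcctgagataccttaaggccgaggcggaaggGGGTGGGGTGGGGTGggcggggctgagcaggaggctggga
Klf1: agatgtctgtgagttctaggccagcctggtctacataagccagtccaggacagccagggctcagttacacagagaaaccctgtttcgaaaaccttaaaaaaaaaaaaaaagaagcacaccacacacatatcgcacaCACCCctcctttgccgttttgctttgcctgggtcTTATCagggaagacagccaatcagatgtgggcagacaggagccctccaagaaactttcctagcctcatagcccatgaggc

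The alpha globin genes Hba-a1 (ENSMUSG00000069919) and Hba-a2 (ENSMUSG00000069917) encode the alpha chain of adult haemoglobin and lie 12023 bases apart on chromosome 11. Hba-a2 was at 35.5, 27.4 and 184 FPKM in WT hepatocytes and at 23.9, 23.3 and 5.0 FPKM in Cdk1 Liv-/- hepatocytes. Whole liver had it at 309.5, 363 and 639.9 FPKM in WT and at 389, 564 and 502 FPKM in Cdk1 Liv-/-. WT hepatocytes replicate 3 was far above the other hepatocyte libraries, Cdk1 Liv-/- hepatocytes replicate 3 far below, and the whole liver groups overlapped. Hba-a1 was at 14.5, 16.4 and 102 FPKM in WT hepatocytes and at 12.5, 15.8 and 4.02 FPKM in Cdk1 Liv-/- hepatocytes. Its whole liver values were 171, 192 and 347 FPKM in WT and 217, 317 and 264 FPKM in Cdk1 Liv-/-. Both genes thus had the same libraries at the top and bottom, and for Hba-a1 the genotypes overlapped in both compartments. In whole liver neither was called, with a log2 fold change of 0.22 for Hba-a1 (95% interval -0.50 to 0.94, limma adjusted p = 0.583) and of 0.21 for Hba-a2 (95% interval -0.52 to 0.93, limma adjusted p = 0.618), and the value of Hba-a2 turned to -0.02 after median-ratio scaling between libraries. WT whole liver replicate 3 was the highest of all for both, and without it the values were 0.53 for Hba-a1 (limma adjusted p = 0.0922 in a range of 0.0922 to 1.00) and 0.52 for Hba-a2 (limma adjusted p = 0.108 in a range of 0.108 to 0.991), against 0.03 for Hba-a1 without WT whole liver replicate 1.

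The beta globin genes Hbb-bs (ENSMUSG00000052305) and Hbb-bt (ENSMUSG00000073940) encode the beta chain and lie 12537 bases apart on chromosome 7. Hbb-bs was at 65.6, 39.3 and 222 FPKM in WT hepatocytes and at 27.3, 44.5 and 9.51 FPKM in Cdk1 Liv-/- hepatocytes. In whole liver it was at 480.3, 528 and 919.9 FPKM in WT and at 475, 769.7 and 587 FPKM in Cdk1 Liv-/-. The genotypes overlapped in both compartments, and the log2 fold change in whole liver was -0.04 (95% interval -0.77 to 0.69, limma adjusted p = 0.931). Hbb-bt was at 13.9, 9.60 and 58.8 FPKM in WT hepatocytes and at 4.24, 5.91 and 0.88 FPKM in Cdk1 Liv-/- hepatocytes. Whole liver had it at 120.0, 124 and 239 FPKM in WT and at 66.7, 101 and 85.3 FPKM in Cdk1 Liv-/-. Unlike for Hbb-bs, every Cdk1 Liv-/- library was lower than every WT library in both compartments. The whole liver log2 fold change of Hbb-bt was -0.88 (standard error 0.30, limma adjusted p = 0.0718), short of the fold change threshold. Its adjusted p passed, as did that of 7920 of the 17386 genes tested in whole liver. Hbb-bt was called after median-ratio scaling (-1.10), and with WT replicate 1 (-1.05), WT replicate 2 (-1.02) or Cdk1 Liv-/- replicate 2 (-1.01) left out. Without WT replicate 3 it was -0.55, and without Cdk1 Liv-/- replicate 1 (-0.72, limma adjusted p = 0.168) or Cdk1 Liv-/- replicate 3, the library with Xist (-0.89, limma adjusted p = 0.145), it no longer passed the adjusted p, which ranged from 0.0520 to 0.363 over its alternatives. In bulk RNA such as this, fewer cells of a type and less RNA per cell cannot be told apart.

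In hepatocytes the globins had the largest fold changes of the 9 genes on the log2(FPKM + 0.5) scale, which shrinks those of weakly expressed genes, and also the largest standard errors. The log2 fold change of Cdk1 Liv-/- against WT was -2.56 for Hbb-bt (standard error 0.83), -1.95 for Hba-a2 (standard error 0.89), -1.85 for Hbb-bs (standard error 0.78) and -1.59 for Hba-a1 (standard error 0.85). None of the 4 was called by limma, with adjusted p = 0.105, 0.210, 0.184 and 0.275 in the same order. Under an unadjusted p of 0.05 was 1 of them, Hbb-bt, beside 4939 of the 17386 genes tested. Without WT hepatocytes replicate 3 the log2 fold changes were -1.80 for Hbb-bt, -1.10 for Hba-a2, -1.14 for Hbb-bs and -0.69 for Hba-a1, so that library carried much of the difference. Hbb-bt was called after median-ratio scaling, with a stricter low filter of 1 FPKM on average, and in a fit of all 12 libraries, where Hbb-bs and Hba-a2 were called too.

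Of the 10 globin genes with values, only the 4 adult ones passed the low filter. The embryonic Hbb-bh1 was listed at 0 in every library, as was Hbb-bh2, and the embryonic Hba-x and Hbb-y reached at most 0.03 and 0.04 FPKM. Together the 4 adult globins made up between 0.0135% and 0.0821% of all FPKM in WT hepatocytes, 0.155% to 0.309% in WT whole liver, 0.00295% to 0.0138% in Cdk1 Liv-/- hepatocytes and 0.171% to 0.260% in Cdk1 Liv-/- whole liver. The whole liver groups overlapped, and WT replicate 3 alone stood at 0.309% where the other WT libraries were at 0.155% and 0.174%.

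Ratios between globin genes, chosen after their values were seen, do not depend on how much globin mRNA a library holds. The ratio of Hbb-bt to Hbb-bs was 0.212, 0.244 and 0.265 in WT hepatocytes and 0.155, 0.133 and 0.0925 in Cdk1 Liv-/- hepatocytes. In whole liver it was 0.250, 0.236 and 0.260 in WT and 0.140, 0.131 and 0.145 in Cdk1 Liv-/-. The 6 Cdk1 Liv-/- libraries were all lower than the 6 WT libraries, and WT hepatocytes replicate 3 had the highest ratio of all. The log2 difference between the genotypes was -0.95 in hepatocytes (standard error 0.24) and -0.84 in whole liver (standard error 0.06), each with p = 0.1 in an exact two-sided permutation test, the smallest p that 3 libraries against 3 allow. The promoter windows printed above hold 3 CACCC matches for Hbb-bt and 1 for Hbb-bs, and a part of these sites in the ratio was not tested. The ratio of beta to alpha globin, each the sum of 2 genes, was 1.25, 1.18 and 1.18 in WT whole liver and 0.895, 0.988 and 0.878 in Cdk1 Liv-/- whole liver, a log2 difference of -0.38 (standard error 0.06, exact permutation p = 0.1). In hepatocytes it was 1.59, 1.12 and 0.983 in WT and 0.866, 1.29 and 1.15 in Cdk1 Liv-/-, and these groups overlapped (exact permutation p = 0.7). The ratio of Hba-a1 to Hba-a2 overlapped between the genotypes in both compartments, at 0.520 ± 0.0988 and 0.668 ± 0.141 in WT and Cdk1 Liv-/- hepatocytes and at 0.541 ± 0.0127 and 0.548 ± 0.0188 in WT and Cdk1 Liv-/- whole liver (mean ± SD, n = 3 each; exact permutation p = 0.3 and 0.6).

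**Figure D2:**
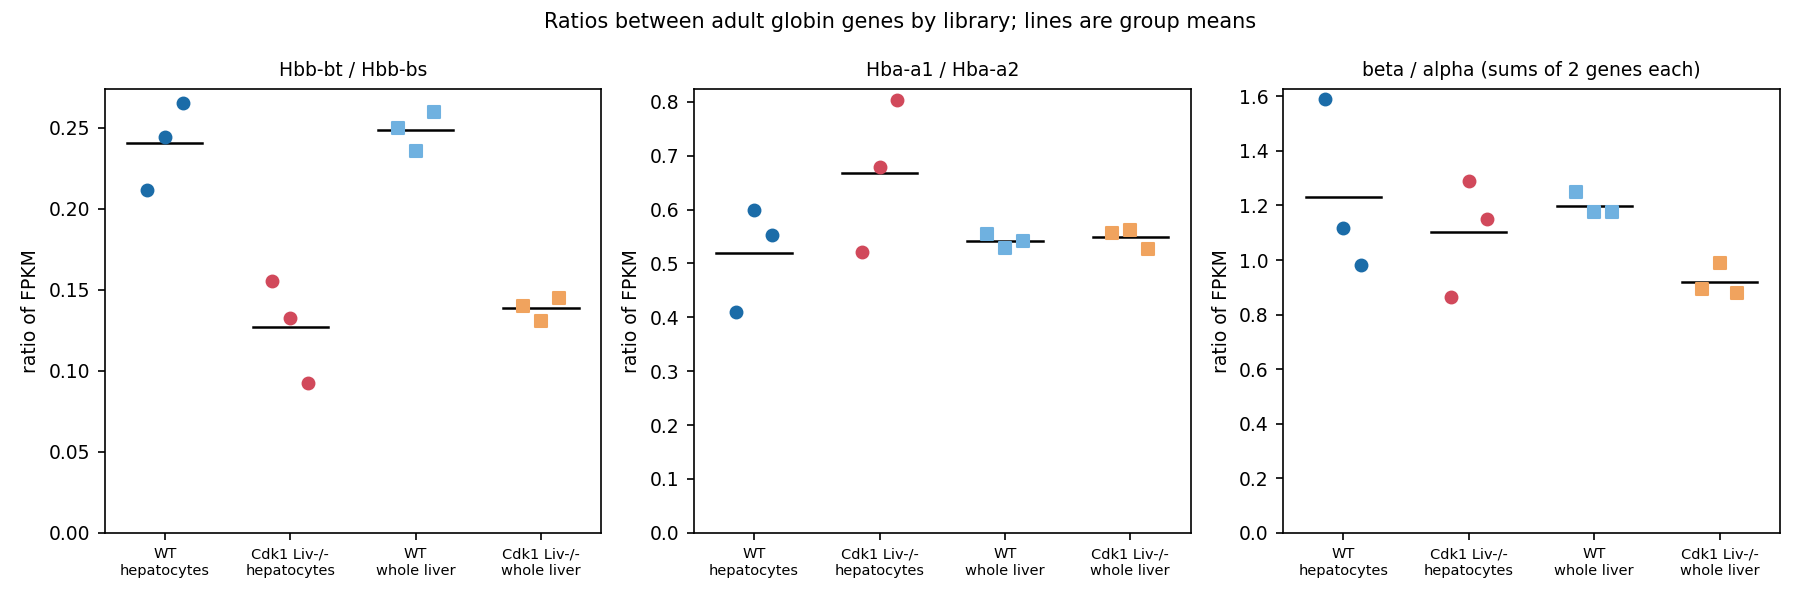
Ratios of FPKM between adult globin genes, with a point for each library and a line at each group mean (3 libraries a group). Hbb-bt over Hbb-bs is lower in all 6 Cdk1 Liv-/- libraries than in all 6 WT libraries, Hba-a1 over Hba-a2 overlaps between genotypes, and beta over alpha is lower in Cdk1 Liv-/- in whole liver.

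The genes of each globin pair are close copies, so how reads were split between copies is uncertain. Of the 625 stretches of 75 bases in the longest Hba-a1 transcript, 389 (62.2%) also occur in the transcript of Hba-a2, where they are 81.0% of 480. For the beta pair 356 stretches are shared, 64.3% of the 554 of Hbb-bs and 56.6% of the 629 of Hbb-bt. The ratios within a pair rest on the reads from the remaining stretches and on the way the quantification shared out the others.

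Alas2 (ENSMUSG00000025270, chromosome X) encodes the erythroid form of the enzyme that starts haem synthesis. It was at 15.9, 14.1 and 13.1 FPKM in WT hepatocytes and at 4.11, 9.82 and 4.78 FPKM in Cdk1 Liv-/- hepatocytes. Its whole liver values were 20.5, 20.5 and 21.7 FPKM in WT and 15.9, 12.4 and 14.2 FPKM in Cdk1 Liv-/-. Every Cdk1 Liv-/- library was again lower than every WT library of its compartment, and the WT hepatocyte library rich in globin mRNA, replicate 3, was the lowest of its group. In whole liver the log2 fold change was -0.55 (standard error 0.10, limma adjusted p = 0.0104), smaller than the fold change threshold. Its adjusted p passed, as did that of 7920 of the 17386 genes tested there. In hepatocytes the log2 fold change was -1.23 (standard error 0.31, limma adjusted p = 0.0552) and Alas2 was called. That call is fragile: of the 6 fits with a library left out it held only without Cdk1 Liv-/- replicate 2 (limma adjusted p = 0.00795), whereas adjusted p was 0.111 to 0.157 without any of the 3 WT libraries, Cdk1 Liv-/- replicate 1 or Cdk1 Liv-/- replicate 3, with log2 fold changes of -1.30 to -1.01. Apex2, on the opposite strand, spans all of Alas2, 311 of the 2403 exonic bases of Alas2 lie in exons of Apex2, and since the sources used here do not say whether strand was used in counting, values of Alas2 are uncertain in that stretch. Apex2 itself was at 3.44 to 5.49 FPKM in the 12 libraries and had log2 fold changes of 0.19 in hepatocytes (limma adjusted p = 0.453) and 0.03 in whole liver (limma adjusted p = 0.870).

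Slc4a1 (ENSMUSG00000006574, chromosome 11) encodes band 3, the chloride and bicarbonate exchanger of the red cell membrane. It was at 0.28, 0.19 and 1.44 FPKM in WT hepatocytes and at 0.14, 0.18 and 0.12 FPKM in Cdk1 Liv-/- hepatocytes. In whole liver it was at 0.72, 0.40 and 1.37 FPKM in WT and at 0.64, 1.90 and 1.44 FPKM in Cdk1 Liv-/-. Cdk1 Liv-/- hepatocytes were all just under the lowest WT hepatocyte library, WT replicate 3 was again far above the rest, and the whole liver genotypes overlapped. The log2 fold change was -0.65 in hepatocytes (95% interval -1.59 to 0.29, limma adjusted p = 0.320), or -0.18 without WT replicate 3, and 0.46 in whole liver (95% interval -0.45 to 1.37, limma adjusted p = 0.374). With a library left out the whole liver value ranged from 0.21 to 0.76 (limma adjusted p from 0.145 to 0.715).

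Klf1 (ENSMUSG00000054191, chromosome 8), also known as erythroid Kruppel-like factor, is the transcription factor that activates adult beta globin among many other erythroid genes. It was at 1.65, 1.99 and 2.01 FPKM in WT hepatocytes and at 0.25, 0.80 and 0.33 FPKM in Cdk1 Liv-/- hepatocytes. Whole liver had it at 2.75, 2.30 and 2.20 FPKM in WT and at 0.88, 0.66 and 0.37 FPKM in Cdk1 Liv-/-. The 6 Cdk1 Liv-/- libraries were all lower than the 6 WT libraries, whatever the compartment. Klf1 fell in whole liver, with a log2 fold change of -1.38 (standard error 0.19, limma adjusted p = 0.00527), from 2.42 ± 0.293 to 0.637 ± 0.256 FPKM (mean ± SD, n = 3 each), to 26.3% of the WT level. It fell in hepatocytes as well, with a log2 fold change of -1.35 (standard error 0.24, limma adjusted p = 0.0200), to 24.4% of the WT level. The whole liver call held in all 17 alternatives, among them -1.20 without the Cdk1 Liv-/- whole liver replicate 3 (limma adjusted p = 0.0116 in a range of 0.00163 to 0.0275). The hepatocyte call held in 16 of 17, among them -1.31 without WT hepatocytes replicate 3 (limma adjusted p = 0.0600 in a range of 0.00159 to 0.0755), and with a pseudocount of 1 the change was -0.998 and just short of the threshold. The values rest on roughly 15 to 168 reads a library. The mean of Klf1 in isolated hepatocytes was 77.9% of that in whole liver in WT and 72.3% in Cdk1 Liv-/-. The same shares were 16.9% and 4.43% for Hbb-bs, and 68.8% and 43.9% for Alas2. They were 76.7% and 11.1% for Slc4a1, 92.8% and 25.9% for Epor, and 103% and 38.7% for Gata1. Which cells the Klf1 reads came from was not tested.

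Klf1 was also set against Hbb-bs, the most abundant globin. Per 1000 FPKM of Hbb-bs it was at 5.73, 4.35 and 2.39 FPKM in WT whole liver and at 1.85, 0.857 and 0.630 FPKM in Cdk1 Liv-/- whole liver, without overlap. In hepatocytes the same quantity was 25.1, 50.6 and 9.07 in WT and 9.16, 18.0 and 34.7 in Cdk1 Liv-/-, with overlap. Alas2 per 1000 FPKM of Hbb-bs was at 42.7, 38.8 and 23.6 FPKM in WT whole liver and at 33.5, 16.1 and 24.2 FPKM in Cdk1 Liv-/- whole liver, with overlap. In hepatocytes it was at 243, 359 and 59.0 FPKM in WT and at 151, 221 and 503 FPKM in Cdk1 Liv-/-, also with overlap.

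**Figure D3:**
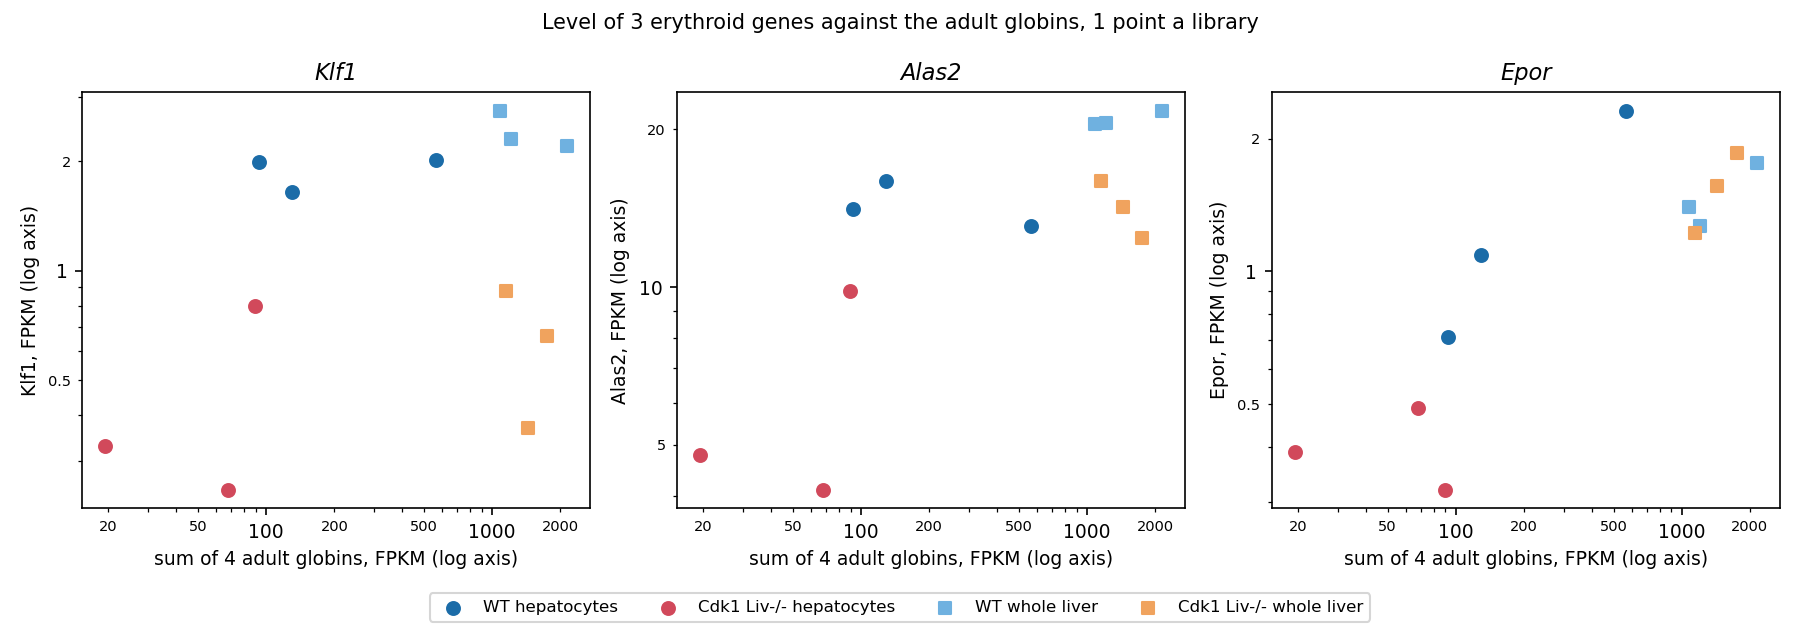
FPKM of Klf1, Alas2 and Epor against the summed FPKM of the 4 adult globins, both on log axes, with a point for each library. In whole liver the FPKM of Klf1 and of Alas2 does not overlap between the genotypes and that of Epor does.

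Gata1 (ENSMUSG00000031162, chromosome X), the factor that red cell precursors need to survive and mature, was at 0.04, 0.07 and 0.24 FPKM in WT hepatocytes and at 0.11, 0.07 and 0.06 FPKM in Cdk1 Liv-/- hepatocytes. Its whole liver values were 0.14, 0.07 and 0.13 FPKM in WT and 0.08, 0.30 and 0.24 FPKM in Cdk1 Liv-/-. These levels stand for roughly 4 to 26 reads a library, and the genotypes overlapped in both compartments. The log2 fold change was -0.08 in hepatocytes (95% interval -0.40 to 0.25, limma adjusted p = 0.753) and 0.19 in whole liver (95% interval -0.14 to 0.53, limma adjusted p = 0.308). Without Cdk1 Liv-/- replicate 1 the whole liver value of Gata1 was 0.33 and passed the adjusted p (limma adjusted p = 0.0509 in a range of 0.0509 to 0.606), short of the fold change threshold. In hepatocytes its sign turned without WT replicate 3, to 0.06.

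Epor (ENSMUSG00000006235, chromosome 9), the receptor through which erythropoietin keeps progenitors alive, was at 1.09, 0.71 and 2.31 FPKM in WT hepatocytes and at 0.49, 0.32 and 0.39 FPKM in Cdk1 Liv-/- hepatocytes. In whole liver it was at 1.40, 1.27 and 1.76 FPKM in WT and at 1.22, 1.85 and 1.56 FPKM in Cdk1 Liv-/-. Every Cdk1 Liv-/- hepatocyte library was lower than every WT hepatocyte library, and in whole liver the genotypes overlapped. In hepatocytes the log2 fold change was -0.97 (standard error 0.31, limma adjusted p = 0.105), short of both thresholds. It was called with a pseudocount of 0.1 (-1.42), after median-ratio scaling (-1.03) and without WT replicate 2 (-1.24), and was -0.63 without WT replicate 3, with adjusted p from 0.0220 to 0.232 over all alternatives. In whole liver the log2 fold change was 0.04 (95% interval -0.33 to 0.42, limma adjusted p = 0.844) and turned to -0.12 after median-ratio scaling.

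Counted over the 9 genes, Cdk1 Liv-/- against WT in isolated hepatocytes gave 2 called, Alas2 and Klf1, both lower, where 6.37% of the 17386 genes tested were called and 2.17% were called lower. The median log2 fold change of the 9 genes was -1.35 and that of all genes tested 0.05. In whole liver 1 of the 9 genes, Klf1, was called lower, where 5.59% of all genes were called and 1.00% were called lower. The median of the 9 genes was 0.04 there, beside 0.18 over all genes, a shift that median-ratio scaling took to 0.01, and changes in whole liver are to be read relative to it. Klf1, Alas2 and Hbb-bt were below 0 in whole liver in all fits and scalings tried.

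**Figure D4:**
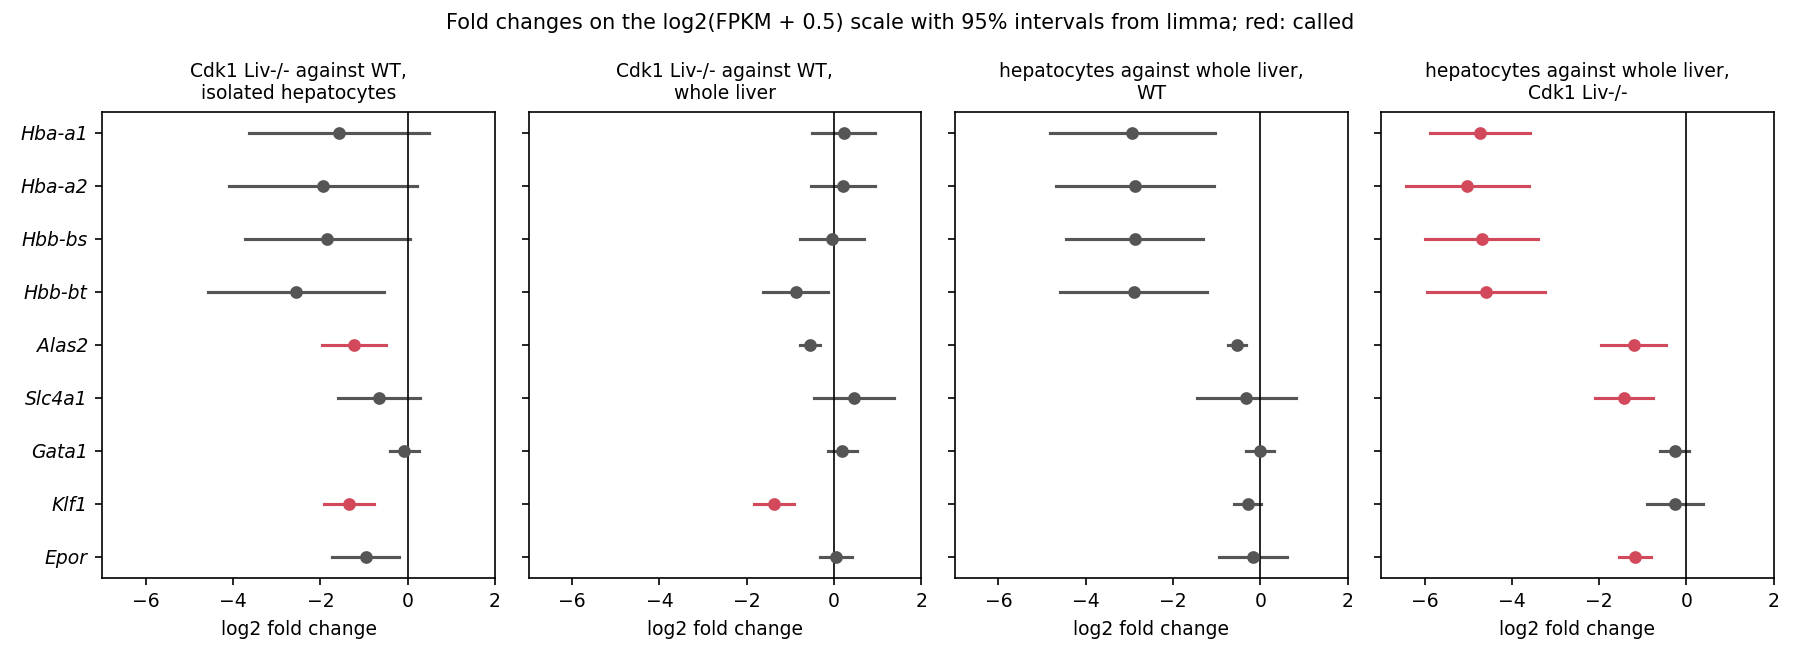
Log2 fold changes of the 9 erythroid genes on the log2(FPKM + 0.5) scale with 95% intervals from limma, for Cdk1 Liv-/- against WT in each compartment and for isolated hepatocytes against whole liver in each genotype, with called genes in red. Klf1 is called in both compartments between the genotypes, and all 4 globins are called between the compartments in Cdk1 Liv-/- but not in WT.

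Isolated hepatocytes were then set against whole liver within each genotype. In Cdk1 Liv-/-, 7 of the 9 genes were called, all lower in hepatocytes, where 11.0% of all genes were called and 9.46% were called lower. The globins fell most, with a log2 fold change of -5.03 for Hba-a2 (standard error 0.58, limma adjusted p = 0.00211), -4.74 for Hba-a1, -4.69 for Hbb-bs and -4.59 for Hbb-bt, and each of these calls held in all 17 alternatives. Slc4a1 (-1.43), Alas2 (-1.21) and Epor (-1.18) fell less, and each missed the fold change threshold in 1 or 2 alternatives, among them Alas2 without Cdk1 Liv-/- hepatocytes replicate 1 (-0.99). Klf1 (-0.26, 95% interval -0.90 to 0.38) and Gata1 (-0.27, 95% interval -0.61 to 0.06) were not called. Without the Cdk1 Liv-/- whole liver replicate 3 the same 7 genes were called, with Hba-a2 at -4.99 and Klf1 at -0.44. The loss was not one of erythroid genes alone, as limma also called 11 of 11 endothelial genes (median -1.74), 12 of 14 Kupffer cell genes (-1.95) and 12 of 13 stellate cell and fibroblast genes (-2.50) lower in this comparison.

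In WT, limma called 0 of the 9 genes between the compartments, where it called 0.466% of all genes and 0.426% lower. Under an unadjusted p of 0.05 were 5 of the 9, beside 3272 of the 17386 genes tested. The log2 fold change was -2.93 for Hba-a1 (standard error 0.77, limma adjusted p = 0.159), -2.90 for Hbb-bt, -2.88 for Hbb-bs and -2.87 for Hba-a2 (limma adjusted p = 0.157), and all WT hepatocyte libraries lay below all WT whole liver libraries for each. Without WT hepatocytes replicate 3 all 4 globins were called, at -3.82 for Hba-a1, -3.72 for Hba-a2, -3.67 for Hbb-bt and -3.59 for Hbb-bs (limma adjusted p = 0.0289 to 0.0315, in a range of 0.0289 to 0.414 over the alternatives), and 527 of all genes were called in place of 81. Alas2 passed the adjusted p with a small change (-0.53, standard error 0.08, limma adjusted p = 0.0862). Klf1 was at -0.29 (95% interval -0.61 to 0.03), Slc4a1 at -0.33, Epor at -0.16 and Gata1 at -0.00431, all with limma adjusted p above 0.2. With a library left out Slc4a1 ranged from -0.79 to -0.0467 and Epor from -0.50 to 0.10, and neither was called. Both were lowest without WT hepatocytes replicate 3 (limma adjusted p = 0.179 for Slc4a1 and 0.151 for Epor). The medians of the endothelial, Kupffer cell, and stellate cell and fibroblast lists were 0.07, -0.51 and -0.97 in WT. Limma called 0 of their genes, and 0, 0 and 7 were under an unadjusted p of 0.05. On the B cell list (median -1.01) limma called 1 gene lower, Ms4a1 (-1.22, limma adjusted p = 0.0840), with 8 of 10 under an unadjusted p of 0.05. On the T and NK cell list (median -0.71) it called none, with 10 of 11 under an unadjusted p of 0.05. The megakaryocyte and platelet list had a median of 0.02 with none called.

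These comparisons share libraries, so their values stand side by side and are not independent. The interaction, from 1 limma fit of all 12 libraries, asks if the genotypes differed by the same amount in both compartments. It passed for 0 of the 9 genes, where 9.85% of all genes passed. Epor, 1 of the 9, was under an unadjusted p of 0.05, as were 4106 of the 17386 genes tested. The difference was 0.03 for Klf1 (95% interval -0.66 to 0.71, limma adjusted p = 0.970), -2.16 for Hba-a2 (95% interval -4.38 to 0.07, limma adjusted p = 0.225) and -1.01 for Epor (95% interval -1.83 to -0.20, limma adjusted p = 0.133). The intervals of all 4 globins were wide and included 0, so the globins are not shown to differ between the compartments in how they changed. Epor passed without WT hepatocytes replicate 2 (-1.28, limma adjusted p = 0.0360) and Alas2 without Cdk1 Liv-/- hepatocytes replicate 2 (-1.04, limma adjusted p = 0.0180). With both libraries that stand apart left out, an alternative added after the data were seen, the difference was -0.11 for Klf1, -1.28 for Hba-a2 and -0.66 for Epor, and none of the 9 passed.

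The 9 genes were set among 6 lists of erythroid genes, 96 genes in all. In whole liver 1 gene on these lists other than the 9 was called in each of 2 lists, both higher. With Klf1 these are 3 of 86 genes tested, 3.49% beside 5.59% of all genes. Socs3, a feedback inhibitor of cytokine signalling that many cytokines induce, was at 2.39, 2.13 and 2.47 FPKM in WT and at 9.83, 11.1 and 7.59 FPKM in Cdk1 Liv-/- whole liver, a log2 fold change of 1.81 (standard error 0.14, limma adjusted p = 0.00118). Ypel4, on the list of late erythroid maturation, was at 0.90, 0.75 and 0.66 FPKM in WT and at 3.57, 5.09 and 3.50 FPKM in Cdk1 Liv-/- whole liver, a log2 fold change of 1.83 (standard error 0.16, limma adjusted p = 0.00155). Both genes were higher in every Cdk1 Liv-/- library than in every WT library. The median log2 fold change in whole liver was 0.08 for the 4 globins tested, 0.03 for 14 genes of haem synthesis and mitochondrial iron supply, 0.24 for 19 of the red cell membrane and skeleton, 0.17 for 14 erythroid transcription factors, 0.27 for 15 of erythropoietin and transferrin receptor signalling and 0.25 for 20 of late erythroid maturation, beside 0.18 for all genes. Limma called no gene of the globin, haem and membrane lists there, where 1, 4 and 5 of their genes were under an unadjusted p of 0.05. Over all genes tested, 8109 of 17386 were under it.

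Genes at the ends of each list in whole liver were as follows. Among haem genes Alas2 had the lowest value, then Slc25a38, the mitochondrial glycine importer (-0.25), and Alad (0.57) and Uros (0.38), enzymes of later steps, had the highest. On the membrane list Tspan33 (-0.62) and the spectrin gene Sptb (-0.47) were lowest, and glycophorin C, Gypc (0.59), and the water channel Aqp1 (0.54) highest. After Klf1 the lowest transcription factor was Myb (-0.50), needed by early progenitors, and the highest were Nfe2 (0.87) and Zfpm1 (0.67), the cofactor of Gata1. Of the signalling genes Stat5b (-0.60), which carries the signal of Epor, and the transferrin receptor Tfrc (-0.49) were lowest, and Epo itself was at 0.76 with a 95% interval of -0.79 to 2.32. Of the late genes Fam46c (-0.43) was among the lowest, and Prdx2 (0.56), an abundant red cell peroxidase, was highest after Ypel4. Of these genes Myb, Tfrc and Epo did not pass the adjusted p in limma, and the others with a value given here passed it without reaching the fold change threshold. Over all genes tested in whole liver, 7920 of 17386 passed it. With a library left out, limma adjusted p reached 0.220 for Slc25a38, 0.177 for Fam46c and 0.157 for Nfe2, and Nfe2 was called in 1 of 6 fits. In the other direction it fell to 0.0496 for Myb and 0.0687 for Tfrc. Over the same fits Tfrc ranged from -0.76 to -0.18 and Epo from 0.13 to 1.26.

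In hepatocytes the erythroid lists held 7 called genes out of 86 tested, 8.14% beside 6.37% of all genes. Besides Alas2 and Klf1, limma called Aqp1 (-1.59, standard error 0.37, adjusted p = 0.0470), Tspan33 (-1.10, standard error 0.15, adjusted p = 0.0103) and Tmcc2 (-1.13, standard error 0.32, adjusted p = 0.0794) lower, and Cish (1.10, adjusted p = 0.0957) and Socs3 (1.12, adjusted p = 0.0811), both feedback inhibitors of cytokine signalling, higher. With a library left out Tspan33 was called in 6 of 6 fits, Aqp1 in 3, and Cish, Socs3 and Tmcc2 in 1 each, with adjusted p up to 0.218. Without WT hepatocytes replicate 3, Aqp1 (-1.21) and Tspan33 (-1.01) were called and Tmcc2 (-0.80), Cish (1.07) and Socs3 (1.11) were not. The medians were -1.90 for globins, 0.03 for haem synthesis, -0.16 for the membrane list, -0.11 for transcription factors, -0.20 for receptor signalling and 0.03 for late maturation, beside 0.05 for all genes. Most genes on the lists are not specific to red cells. The most abundant gene of each list other than the globins was Alad, Aqp1, Ldb1, Tfr2 or Gclm, which hepatocytes or other liver cells express as well. Between the compartments in Cdk1 Liv-/-, genes on these lists called lower in hepatocytes included Aqp1, Lmo2, Cbfa2t3, Socs3, Kit, Tmcc2 and Ypel4. In WT limma called 0 genes of the 6 lists between the compartments. Of the 86 tested, 21 were under an unadjusted p of 0.05, beside 3272 of 17386 over all genes.

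**Figure D5:**
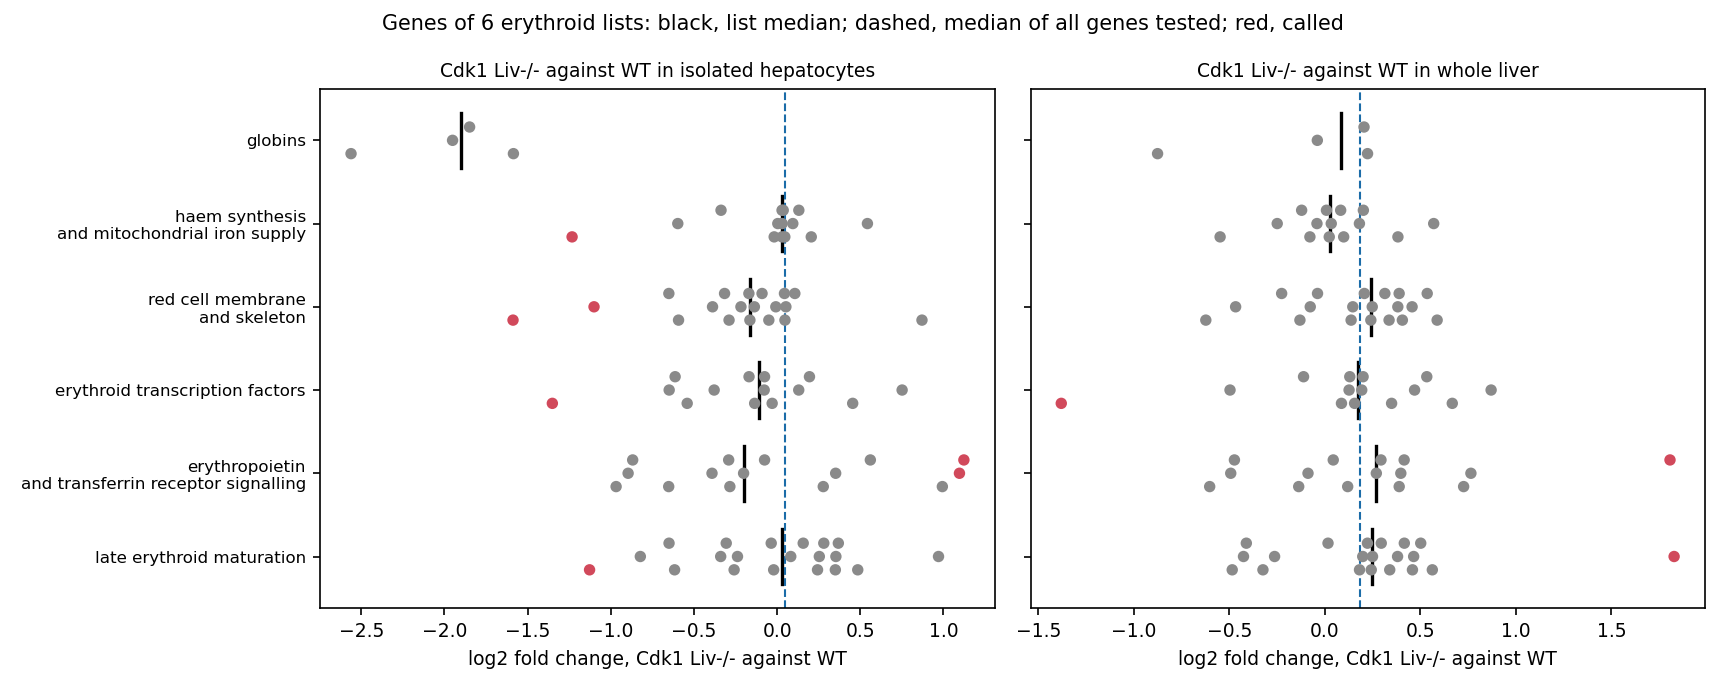
Log2 fold changes of Cdk1 Liv-/- against WT in isolated hepatocytes and in whole liver for the tested genes of the 6 erythroid lists, a point for each gene, with the list median as a black bar, the median of all genes tested as a dashed line and called genes in red. The globins in hepatocytes have the lowest median (-1.90), and Klf1 is called in both compartments.

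Markers of other cells moved with the erythroid genes between the hepatocyte groups. The 11 sinusoidal endothelial markers, led by Stab1, summed to 153, 104 and 296 FPKM in WT and to 70.9, 45.0 and 52.8 FPKM in Cdk1 Liv-/- hepatocytes, with 10 of 11 called lower by limma and a median of -1.56. The 14 Kupffer cell markers, led by Cd5l, summed to 445, 272 and 755 FPKM in WT and to 257, 202 and 184 FPKM in Cdk1 Liv-/- hepatocytes, with 3 of 14 called lower and a median of -1.15. In whole liver the endothelial list summed to 145, 169 and 206 FPKM in WT and to 177, 228 and 179.7 FPKM in Cdk1 Liv-/-, and the Kupffer list to 595, 656 and 665 and to 728, 987 and 767 FPKM. No gene of either list was called there by limma, where 1 and 7 were under an unadjusted p of 0.05, beside 8109 of the 17386 genes tested. No marker of these lists was at 0 in all libraries, and their part in the lower erythroid values of Cdk1 Liv-/- hepatocytes was not tested.

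The B cell list of 11 genes, led by Ighm, summed to 9.13, 7.11 and 20.8 FPKM in WT and to 5.44, 3.01 and 3.03 FPKM in Cdk1 Liv-/- hepatocytes, with 3 of the 10 tested genes called lower (median -0.69). The lists of 11 T and NK cell genes, led by Gzma (median -0.40, 1 called lower), of 13 stellate cell and fibroblast genes, led by Col3a1 (-0.72, 0 called, 2 under an unadjusted p of 0.05), of 14 megakaryocyte and platelet genes, led by Clec1b (-0.38, 0 called, 1), and of 12 stem and progenitor cell genes, led by Spi1 (-0.29, 0 called, 3), also had medians below 0 in hepatocytes by limma. The hepatocyte list, led by Alb, had a median of -0.36 with 1 of 12 genes called lower. Of all 17386 genes tested in hepatocytes, 730 were called higher, 377 were called lower and 4939 were under an unadjusted p of 0.05. The neutrophil list, led by Lcn2 (-0.17, 3 of 14 called higher), and the monocyte list, led by Fn1 (0.03, 1 of 10 called higher), had calls in the other direction, with Lcn2 and Fn1 taking 76.8% and 93.2% of the sums of their lists. The megakaryocyte list, of the cells closest in lineage to red cells, summed to 32.1, 28.4 and 36.3 FPKM in WT whole liver and to 35.5, 58.7 and 44.0 FPKM in Cdk1 Liv-/- whole liver, with overlap. Clec1b, with means of 12.1 and 22.7 FPKM in these groups, took 41.6% of the sum over the 12 libraries. Of the 12 genes tested, 5 had whole liver fold changes above 0 and 7 below. The part of megakaryocytes in the whole liver values of the erythroid genes was not tested.

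In whole liver limma called 7 of 14 neutrophil genes (median 1.31), 5 of 10 monocyte genes (1.00), 5 of 13 stellate cell and fibroblast genes (0.77), 1 of 9 stem and progenitor cell genes tested (0.54) and 2 of 11 genes of red cell clearance and haem disposal (0.53) higher in Cdk1 Liv-/-, and 1 of 11 T and NK cell genes (-0.00339) lower. Over all 17386 genes tested it called 798 higher and 174 lower, with a median of 0.18. It called none of the megakaryocyte (-0.08, 3 under an unadjusted p of 0.05), B cell (-0.47, 4) and hepatocyte (-0.46, 5) genes. Of all 17386 genes tested, 8109 were under that unadjusted p. The clearance list, led by the haem binder Hpx, which hepatocytes secrete and which takes 47.7% of the sum, summed to 7851, 7876 and 8325 FPKM in WT and to 13271, 17479 and 13931 FPKM in Cdk1 Liv-/- whole liver, without overlap, and in hepatocytes 2 of its 11 genes were called higher (median 0.15). In whole liver the neutrophil list summed to 91.5, 59.3 and 88.6 FPKM in WT and to 479, 994 and 784 FPKM in Cdk1 Liv-/-, most of the latter from Lcn2 (383, 662 and 516 FPKM). Lcn2 was also at 450.1, 559 and 963 FPKM in Cdk1 Liv-/- hepatocytes against 8.37, 10.1 and 9.28 FPKM in WT hepatocytes, so this sum is not one of neutrophils alone. The stellate cell and fibroblast list summed to 483, 479 and 562 FPKM in WT and to 975, 1225 and 914 FPKM in Cdk1 Liv-/- whole liver, without overlap. The part of these genes in the levels of the erythroid genes was not tested.

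Across the 12 libraries, log2(FPKM + 0.5) of the globins moved together, with Pearson r = 0.996 for Hba-a1 and Hba-a2 (0.982 within the 6 hepatocyte libraries and 0.995 within the 6 whole liver libraries) and r = 0.984 for Hbb-bs and Hbb-bt (0.988 and 0.674). Slc4a1 and Epor had r = 0.895 (0.920 and 0.928). Alas2 and Klf1 had r = 0.790 (0.962 and 0.918), whereas Klf1 and Hbb-bs had r = 0.396 (0.759 and -0.0633) and Klf1 and Gata1 r = -0.132 (0.257 and -0.636). Within whole liver Hba-a1, Hba-a2, Hbb-bs, Slc4a1, Epor and Gata1 had positive r with each other. Klf1 and Alas2 had negative r with all of these, weakly so with Hbb-bs (-0.0633 and -0.0686), while Hbb-bt had positive r with all but Gata1. The 6 whole liver libraries hold both genotypes. Klf1, Alas2 and Hbb-bt did not overlap between the genotypes there, so their r includes that difference. These values describe libraries that share compartment and genotype, and the points are not independent.

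The genes most like the mean of the 9 over the 12 libraries, out of 12271 genes averaging 1 FPKM or more (a single entry for each symbol and the 9 genes themselves left out), were Myl9 (r = 0.976), Samd1 (0.975), Afap1l2 (0.970), Serpinh1 (0.970), Atp2a3 (0.970), Cd79b (0.970), Ighm (0.969), Ngfr (0.969), Nrm (0.968) and Slc7a5 (0.968). Within the 6 hepatocyte libraries their r lay between 0.900 and 0.971, and within the 6 whole liver libraries between -0.119 and 0.888. Ighm and Cd79b are B cell genes.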

How the data were processed

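RNA-seq values were analysed for 12 libraries, 3 in each of 4 groups. The deposited values are FPKM to 2 decimals, made by the authors with STAR and RSEM 1.2.31 on the mm10 build from a TruSeq Stranded mRNA kit. The sources used here give no STAR version, annotation release or strand setting, and the authors did not normalize between libraries. Gene models are from GENCODE on GRCm38, and promoter windows from RefSeq on that build.

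Each comparison was fitted with limma 3.58.1 in R 4.3.3 (eBayes with a trend, two-sided) on log2(FPKM + 0.5), with Benjamini-Hochberg adjustment over the 17386 genes averaging 0.1 FPKM or more. A call took an adjusted p up to 0.1 together with a log2 fold change of 1 or more in size, and the interaction passed by adjusted p alone. The ratios between globins were tested by exact permutation, and levels relative to Hbb-bs were not tested. The fits and the depth estimate were first run on simulated data with known answers. Tables and figures were made in Python 3.11.15 with pandas 2.3.3 and matplotlib 3.10.9.

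Depth was estimated from the low values of short transcripts. At the fitted step 61.8% to 67.2% of 513 to 695 values a library lay within 0.1 reads of a whole number, against 13.8% to 15.2% over other steps. FPKM is not a count, so no count model was used.

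The erythroid genes and the 17 lists (6 erythroid and 11 of other cells and of red cell clearance, 226 genes with values) were chosen with earlier results of these data known. Some genes, such as Kit and Cd163, are on 2 lists. Ahsp, Hbb-b1, Hbb-b2 and Fcn3 were not analysed here. Other genes were named by a rule: on each erythroid list genes among the 2 largest and 2 smallest whole liver fold changes, on each other list the most abundant gene, the genes of the label checks, and the 10 genes most like the mean of the 9. Called list genes and Apex2 were named after their values were seen.

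Alternatives were a pseudocount of 0.1 or 1, no filter or a mean of at least 1, median-ratio size factors, equal sums with and without globins, no fold change threshold, no moderation, 1 fit of all libraries, a replicate block and each library left out.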

Additional observations from a re-analysis of the deposited data

Results flagged for a closer look

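The change between the genotypes differed between isolated hepatocytes and whole liver for 5 genes on the erythroid lists, none of them among the 9 genes described above, as the limma interaction over 12 libraries passed an adjusted p of 0.1. They are 5.81% of the 86 list genes tested, below the 9.85% of all genes that passed. Aqp1, a water channel of red cells and also of endothelium, had a difference of -2.12 on the log2 scale (adjusted p = 0.0427) and passed in 11 of 12 fits with a library left out. Kit, the receptor of stem cell factor, had a difference of -1.17 (adjusted p = 0.0362) and passed in 11 of 12. Cpox, an enzyme of haem synthesis that hepatocytes also express, had a difference of -0.56 (adjusted p = 0.0559) and passed in 10 of 12. Tmcc2 had a difference of -1.38 (adjusted p = 0.0919) and passed in 2 of 12, and Slc43a1 a difference of 0.67 (adjusted p = 0.0977) and passed in 2 of 12. For Kit the libraries were at 1.83, 1.61 and 2.33 FPKM in WT hepatocytes, 0.83, 0.74 and 0.81 FPKM in Cdk1 Liv-/- hepatocytes, 2.13, 3.15 and 2.07 FPKM in WT whole liver and 2.93, 2.97 and 3.13 FPKM in Cdk1 Liv-/- whole liver. Of the markers of other liver cells, 9 of 11 endothelial genes (median -1.72), 6 of 14 Kupffer cell genes (-1.42) and 6 of 13 stellate cell and fibroblast genes (-1.34) passed the same limma interaction with negative values, as Aqp1, Kit, Cpox and Tmcc2 did. The part that the markers of other liver cells had in these differences was not tested.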

How the results depend on the processing

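Of 1482 alternative values of 84 log2 fold changes, 1319 kept direction and side of the threshold, 100 lost a call, 41 gained it and 22 turned sign, all 22 in results that were not called. Of the 800 values of the 9 erythroid genes, 740 kept both. Values that turned sign were, with median-ratio scaling, Hba-a2 (-0.0166) and Epor (-0.12) in whole liver and Gata1 (0.0156) between compartments in WT, where Gata1 was also at 0.00052 with a pseudocount of 1 and at 0.00011 with equal sums, and Klf1 in the interaction at -0.11 with a pseudocount of 0.1 and -0.11 without both libraries that stand apart. With a library left out the ranges were -0.16 to 0.0631 (Gata1, hepatocytes), -0.00779 to 0.52 (Hba-a2, whole liver), -0.22 to 0.25 (Hbb-bs, whole liver), -0.0628 to 0.16 (Epor, whole liver), -0.14 to 0.0844 (Gata1) and -0.50 to 0.10 (Epor) between compartments in WT, and -0.21 to 0.19 (Klf1, interaction).

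Counts moved by over 1.5 times as follows, and the cause was not tested. In hepatocytes 1107 genes were called, 1761 with a pseudocount of 0.1, 696 without moderation and 3257 by adjusted p alone, and of the 9 genes 1 in place of 2 with a pseudocount of 1 and without moderation, 4 after median-ratio scaling, 5 in 1 fit of all libraries, and 1 to 2 with a library left out. In whole liver 972 were called, 1650 with a pseudocount of 0.1 and 7920 by adjusted p alone, and of the 9 genes 2 in place of 1 after median-ratio scaling, 3 by adjusted p alone and 1 to 2 with a library left out. Between compartments in WT 81 were called, 172 and 48 with a pseudocount of 0.1 and 1, 46 at a mean FPKM of at least 1, 41 after median-ratio scaling, 51 with equal sums, 4 without moderation, 265 by adjusted p alone, 160 in 1 fit and 1 to 527 with a library left out, and of the 9 genes 1 by adjusted p alone, 4 in 1 fit and 0 to 4 with a library left out. In Cdk1 Liv-/- 1906 were called, 3269 with a pseudocount of 0.1 and 7774 by adjusted p alone. The interaction passed for 1712 genes, 915 without a filter, 1040 after median-ratio scaling, 939 without moderation, 452 without both libraries that stand apart and 78 to 2639 with a library left out, and for 0 to 1 of the 9 genes with a library left out. Median-ratio scaling moved the split of higher and lower calls from 798 and 174 to 513 and 242 in whole liver, from 262 and 1644 to 467 and 1227 between compartments in Cdk1 Liv-/-, and from 409 and 1303 to 548 and 492 in the interaction. Genes called lower in hepatocytes numbered 168 to 592 with a library left out, in place of 377.

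Replicate numbers are not stated to pair the libraries, and deviations of same-numbered libraries had correlations of -0.32 to 0.24 over 18 pairs. With a replicate block 1 of the 9 genes was called in hepatocytes (Alas2 was not, at an adjusted p of 0.110), 0 genes between compartments in WT and 656 in the interaction, and no other call of the 9 genes changed. A mean FPKM of at least 1 leaves Gata1 and Slc4a1 untested. Values of Gata1 rest on few reads.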
